A study of Mus musculus with 4 samples.

Results

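The integrin subunit genes Itga1, Itga3, Itga5, Itga6, Itgav, Itgb1, Itgb3, Itgb4, Itgb5 and Itgb8 were taken from the gene table by their symbols, which gave 10 genes of the 51912 listed. Their transcripts were compared between β cells of Robo mutant mice and of control mice, all from neonates of day 13, in 4 libraries, 2 of each genotype. The mutant libraries carried Robo1delta/delta and Robo2flx/flx, and the controls Robo1+/+ and Robo2+/+. Both genotypes also carried 1 copy of Ucn3-Cre, a recombinase expressed from a gene of maturing β cells, and 1 copy of the Cre-dependent nuclear reporter Rosa26-lsl-H2B-mCherry. The Robo1 allele is labelled as deleted, so its loss is not limited to cells with Cre, whereas loss of Robo2 depends on it. Islet cells were sorted for mCherry before RNA was extracted. Robo1 and Robo2 encode receptors for Slit proteins, and the series title asks whether their expression in β cells is required for cell type sorting within the islet. Nothing in the labels ties the libraries to separate animals, and the p-values below therefore rest on the spread between libraries, part of which may be technical.

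Integrins are cell surface receptors made of an alpha and a beta subunit, which bind the extracellular matrix outside the cell and connect to actin or keratin filaments inside it. The beta subunit encoded by Itgb1 pairs with many alpha subunits, among them those of Itga3 and Itga6 for laminins, of Itga1 for collagens and of Itga5 for fibronectin. The Itgav subunit pairs with those of Itgb3, Itgb5 and Itgb8, as well as of Itgb1, to bind proteins with the motif arginine-glycine-aspartate, and the Itgb4 subunit pairs only with that of Itga6. In islets, β cells touch the laminin-rich basement membrane of capillaries, and receptors with the Itgb1 subunit are known to carry signals from it.

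Of the members, 1 was lower in both mutant libraries by a margin that stood clear of the spread between libraries before correction for multiple testing. This was Itgav, at 0.698 of its control level (log2 change -0.52). Itgb5, which encodes a partner of the Itgav product, was also below both controls in both mutant libraries, and Itga6 was above both. Itgb1, the most abundant member, differed by a log2 change of -0.03. By edgeR's quasi-likelihood test with Benjamini-Hochberg adjustment 0 of the 10 members passed, as did 0% of the 16517 genes tested. The same test at an unadjusted p under 0.05 gave 1 member, Itgav, against 6.21% of tested genes (4.21% with the mutant lower). DESeq2 also called 0 members, against 0.914% of tested genes, and limma called 0. Groups did not overlap in 3 of the 10 members, 1 with the mutant above and 2 with the mutant below, against 36.6% of tested genes (16.1% above and 20.4% below). The share among the members was thus close to that among tested genes. All 10 members passed the filter on low counts, of which 4 had a log2 change above 0 and 6 below, against 48.7% and 51.3% of tested genes.

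Promoters of Itgav and Itgb5, the members below both controls in both mutant libraries, are shown beside that of Itgb1, whose log2 change was near 0. The windows run from 250 bases before to 30 bases after the annotated start, 5′ to 3′, from RefSeq on GRCm38.p6, with capitals at each match to the GC box GGGCGG on either strand.
Itgav (chr2:83724147-83724426, plus strand): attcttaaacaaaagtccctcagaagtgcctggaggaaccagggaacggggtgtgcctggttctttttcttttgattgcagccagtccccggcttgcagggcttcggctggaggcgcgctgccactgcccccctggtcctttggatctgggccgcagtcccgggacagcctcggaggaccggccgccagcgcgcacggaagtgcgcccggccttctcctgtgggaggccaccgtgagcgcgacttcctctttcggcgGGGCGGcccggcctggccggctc
Itgb5 (chr16:33829415-33829694, plus strand): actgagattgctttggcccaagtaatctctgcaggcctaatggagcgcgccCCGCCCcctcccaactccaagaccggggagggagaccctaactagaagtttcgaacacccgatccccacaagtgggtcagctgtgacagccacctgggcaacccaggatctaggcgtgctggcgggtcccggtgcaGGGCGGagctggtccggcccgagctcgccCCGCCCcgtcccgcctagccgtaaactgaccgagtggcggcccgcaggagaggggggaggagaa
Itgb1 (chr8:128685404-128685683, plus strand): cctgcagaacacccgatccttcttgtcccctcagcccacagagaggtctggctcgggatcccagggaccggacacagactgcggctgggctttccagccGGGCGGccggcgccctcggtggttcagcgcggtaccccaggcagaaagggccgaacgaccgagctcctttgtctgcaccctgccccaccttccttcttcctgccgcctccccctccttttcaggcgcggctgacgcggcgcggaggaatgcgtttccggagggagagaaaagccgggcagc
The Itgav window held 1 such match, the Itgb5 window 3 and the Itgb1 window 1, and 34.9% of 32541 promoter windows of the same length held at least 1. The windows were 66.8%, 66.1% and 67.5% G or C, against a mean of 53.7% over all windows. The AP-1 motif TGANTCA, present in 7.45% of windows, and the CRE motif, whose letters TGACGTCA are present in 1.75%, were also searched on both strands, and neither matched in the 3 windows. No motif searched contains another. Of the 10 members, 7 had a promoter in the RefSeq table used here, and Itga6, Itgb3 and Itgb4 had none.

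The libraries held 49593712 and 47788000 estimated counts in mutants, and 48217557 and 38886129 in controls. The transcripts of the targeted genes were below both controls in each mutant library, with log2 changes of -1.82 for Robo1 and -1.73 for Robo2. Even so, edgeR's quasi-likelihood test called neither (adjusted p = 0.680 for both), whereas DESeq2 called both (adjusted p = 0.00186 and 1.99e-05). A gene that edgeR did not call here is therefore not shown to be unchanged. Robo1 stood at 22.3 and 21.02 CPM (counts scaled to library size with TMM factors) in mutants, against 48.5 and 104 CPM in controls, and Robo2 at 32.7 and 25.6 CPM in mutants, against 75.3 and 118 CPM in controls. The 10 β-cell markers summed to 227525 and 160290 CPM in mutants, against 231397 and 197648 CPM in controls, with Ins2 the most abundant. Of these markers 9 had a log2 change below 0 and 1 above, against 51.3% and 48.7% of tested genes. Both mutants were below both controls in 4 of the 10 and above in 0, against 20.4% and 16.1% of tested genes. The cause was not tested. Transcripts of other cells were present in all libraries and varied within genotypes. Acinar markers summed to 3551 and 54894 CPM in mutant 1 and mutant 2, and to 5671 and 861 CPM in control 1 and control 2, so mutant 2 stood apart. All 16 acinar markers were counted in every library except Ptf1a in mutant 1, and the most abundant, Cel, stood at 706 and 14672 CPM in mutants and 1628 and 114 CPM in controls. Stromal and pericyte markers were lowest in mutant 2, with 1266 and 49.8 CPM in the mutants and 2713 and 796 CPM in the controls. Alpha-cell markers, led by Gcg, summed to 19430 and 24317 CPM in mutants and 23971 and 12039 CPM in controls, and delta-cell markers, led by Sst, to 2506 and 1289 CPM in mutants and 1063 and 981 CPM in controls. Markers of PP and epsilon cells, led by Pyy, summed to 7143 and 5004 CPM in mutants and 6417 and 4319 CPM in controls, and Schwann and neural markers, led by Tubb3, to 25.9 and 38.1 CPM in mutants and 39.8 and 41.7 CPM in controls. The delta-cell marker Cckbr had 0 counts in all libraries, and of the Schwann and neural markers S100b had 0 counts in both mutants and Gfap in mutant 1 and control 1. Log2 CPM correlated across tested genes at 0.937 between the mutant libraries and at 0.977 between the controls, as a description over genes that are not independent.

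**Figure D1:**
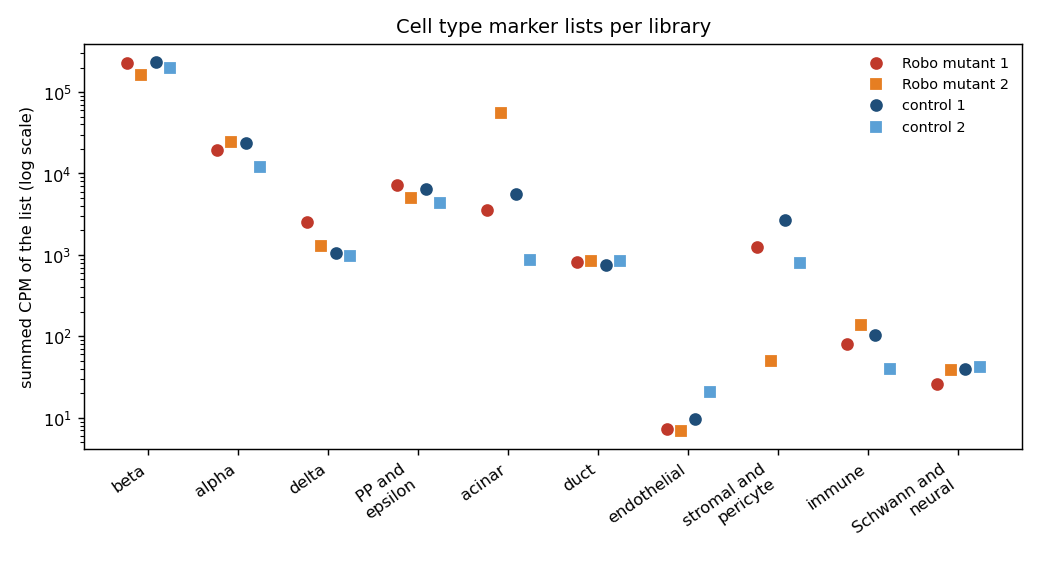
Summed CPM of 10 lists of cell type markers on a log axis, with 1 point per library and the Robo mutant libraries left of the controls. Acinar markers are highest in mutant 2 (54894 CPM), and stromal and pericyte markers are lowest there (49.8 CPM).

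Endothelial markers were the scarcest of these lists, at 7.32 and 6.93 CPM in mutants and 9.69 and 20.7 CPM in controls, led by Esam. Their defining genes Kdr, Tek, Tie1 and Emcn had 0 counts in both mutant libraries and in control 1, as did Cdh5 in both mutants, Cldn5 in mutant 1 and control 1, and Vwf in mutant 2. All 11 were counted in control 2. In bulk samples, fewer cells of a type and less RNA per cell cannot be told apart, and the part of other cells in the values below was not tested except where a value is given.

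Per kilobase of the longest annotated transcript, the members fell into an abundant and a scarce set. Itgb1 led in every library, with 82.4 and 90.1 CPM per kilobase in mutants and 89.5 and 86.1 in controls, above 96.8% of tested genes. Itgb5 (mean of the 4 libraries 21.04 CPM per kilobase), Itga6 (13.5), Itgav (9.25) and Itga3 (7.24) followed, all above the median of tested genes at 4.17. Itgb8 (1.37), Itgb3 (0.635), Itga5 (0.602), Itga1 (0.425) and Itgb4 (0.229) lay below it.

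Over the 4 libraries the range of Itgb1 did not overlap that of Itgb5, and the range of Itga3 did not overlap that of Itgb8. All other neighbours in this order overlapped in range. Within each library, however, Itgb5 exceeded Itga6, at 14.9 against 13.4 and 21.5 against 18.3 CPM per kilobase in mutants, and 25.5 against 12.9 and 22.3 against 9.15 in controls. The order of the remaining overlapping neighbours changed between libraries and is not resolved. The first 6 ranks, from Itgb1 to Itgb8, were the same in mutants and in controls. With the median transcript length in place of the longest, Itgav moved above Itga6, Itga1 above Itga5 and Itgb3.

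**Figure D2:**
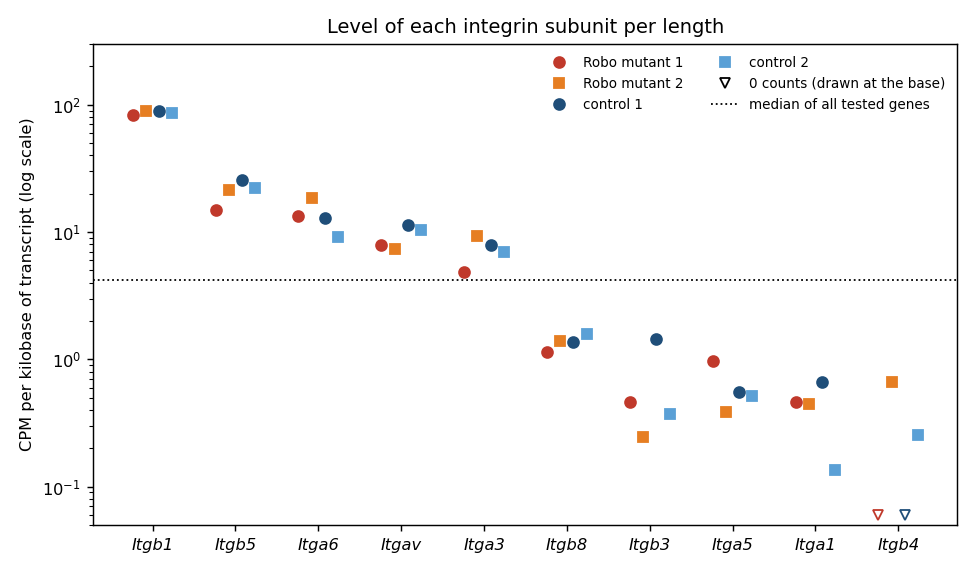
CPM per kilobase of the longest transcript for each member on a log axis, with 1 point per library, Robo mutants left of controls, and the median of all tested genes as a dotted line. Itgb1 lies apart at the top, and Itgb4 has 0 counts in mutant 1 and control 1, drawn as open triangles at the base.

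Itgb1 took 65.2% and 60.2% of the summed signal of the 10 members in mutants and 59.2% and 62.5% in controls, per kilobase of the longest transcript. With the median transcript length these shares were 50.6% and 46.5% in mutants and 42.6% and 45.4% in controls. It also exceeded the sum of its alpha partners Itga1, Itga3, Itga5 and Itga6, by 4.18 and 3.17 times in mutants and 4.07 and 5.13 times in controls. With Itgav counted among the partners the ratios were 2.99 and 2.52 in mutants and 2.68 and 3.17 in controls, and with the median length as well 1.95 and 1.85 in mutants and 1.62 and 1.85 in controls. Among partners of the Itgav product, Itgb5 made up 90.3% and 92.9% of the sum of Itgb3, Itgb5 and Itgb8 in mutants, against 90.0% and 92.0% in controls. The Itgb5 shares, and the Itgb1 shares with the longest transcript, overlapped between genotypes. With the median length the Itgb1 share was above both controls in both mutant libraries, which was not tested. All these shares are of transcript levels and do not measure receptor at the surface.

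**Figure D3:**
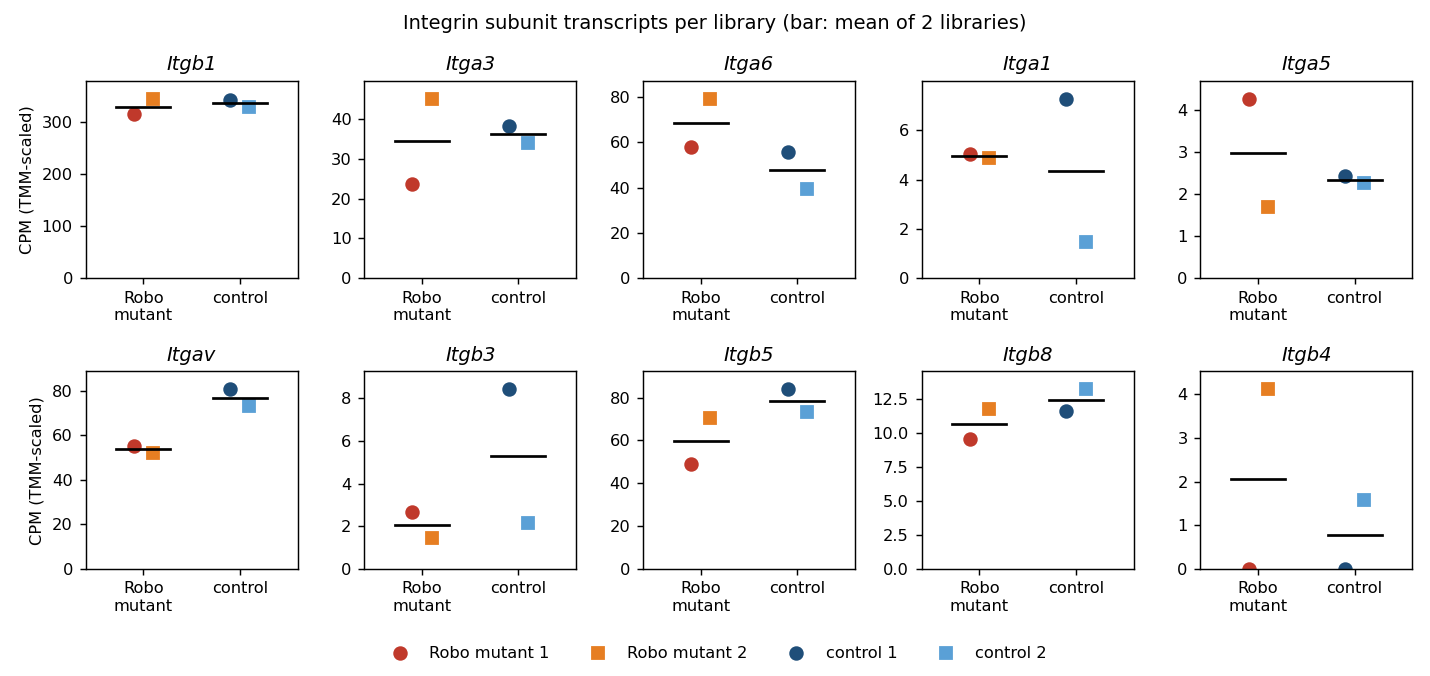
TMM-scaled CPM of each member in each library, Robo mutants left of controls, with bars at the mean of 2 libraries and every axis from 0. In both mutant libraries Itgav and Itgb5 lie under the controls and Itga6 over them, and the groups of the other 7 members overlap.

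Itgb1 (ENSMUSG00000025809, chromosome 8, 128685654 to 128733200, plus strand, GRCm38) encodes the beta subunit shared by most matrix receptors of the cell. It stood at 314 and 344 CPM in mutants, against 341 and 328 CPM in controls. The groups overlapped, and all 4 values lay within a narrow band. The log2 change was -0.03 with a 95% interval of -0.38 to 0.32 (unadjusted p = 0.853 in edgeR's quasi-likelihood test). The interval does not show that the genotypes have the same level. Log2 changes below -0.38 or above 0.32 lie outside it, given the spread between libraries, which may not be separate animals.

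Of the laminin receptor alpha subunits, Itga6 was higher in both mutant libraries and Itga3 was divided. Itga6 (ENSMUSG00000027111, chromosome 2, 71745616 to 71858416, plus strand) stood at 57.9 and 79.1 CPM in mutants, against 55.7 and 39.5 CPM in controls. Mutant 1 lay only just above control 1, so the separation rested on mutant 2 and control 2. The log2 change was 0.52 ± 0.26 (SE, n = 2 each, 95% interval -0.16 to 1.21) and did not pass in edgeR (adjusted p = 0.898). It was 0.28 without mutant 2 and 0.80 without control 1. Mutant 2 had the most acinar transcripts (54894 CPM) and control 2 the fewest (861 CPM), and their part in this difference was not tested. Gene-level counts do not separate the splice forms of Itga6, which differ in their cytoplasmic tails. A stretch of 326 bases of Itga6 is identical to Gm29397, which averaged 0.329 CPM.

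Itga3 (ENSMUSG00000001507, chromosome 11, 95044474 to 95076801, minus strand) stood at 23.7 and 44.9 CPM in mutants, on either side of the controls at 38.2 and 34.0 CPM. Its log2 change was -0.07 with an interval of -0.99 to 0.84, and the sign depended on the mutant library kept: -0.61 without mutant 2 and 0.32 without mutant 1. Both Itga3 and Itga6 were higher in mutant 2 than in mutant 1. The level of Itga6 over that of Itga3, per kilobase, was 2.76 and 1.99 in mutants and 1.65 and 1.31 in controls. This ratio was above both controls in both mutant libraries. It was computed after the values were seen and was not tested.

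The collagen and fibronectin receptor subunits were scarce and variable. Itga1 (ENSMUSG00000042284, chromosome 13, 114953096 to 115101964, minus strand), whose product binds collagens, stood at 5.02 and 4.88 CPM in mutants and at 7.27 and 1.47 CPM in controls. The mutants lay between the controls, which differed from each other more than the genotypes did. Its log2 change was 0.18 with an interval of -2.08 to 2.44, and it ran from -0.55 without control 2 to 1.75 without control 1. Itga1 shares 451 identical bases with the overlapping gene Gm49395. That gene is not among the 51912 listed, so the counts show no division of reads between them.

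Itga5 (ENSMUSG00000000555, chromosome 15, 103344286 to 103366763, minus strand), for the fibronectin receptor, stood at 4.26 and 1.69 CPM in mutants, around the controls at 2.42 and 2.26 CPM. Its log2 change of 0.35 (interval -1.60 to 2.30) became -0.47 without mutant 1 and 0.86 without mutant 2. Both intervals include 0 and are wide, so neither gene can be placed as higher or lower in the mutant.

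Itgav (ENSMUSG00000027087, chromosome 2, 83724397 to 83806916, plus strand) encodes the alpha subunit of receptors for vitronectin, fibronectin and latent TGF-β. It stood at 55.3 and 51.9 CPM in mutants, against 80.6 and 73.0 CPM in controls. Both mutant libraries were below both controls, and the gap between genotypes was wider than the spread within either. The means were 53.6 ± 2.38 CPM in mutants and 76.8 ± 5.40 CPM in controls (SD, n = 2 each). The log2 change was -0.52 ± 0.13 (SE) with a 95% interval of -0.87 to -0.16, and edgeR's quasi-likelihood test gave an unadjusted p of 0.0144 and an adjusted p of 0.680. The adjusted p was 0.261 in DESeq2 and ranged from 0.155 to 1.00 over all alternatives, and the unadjusted p was 0.127 without control 1 and 0.0602 without control 2.

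The Itgav difference kept its direction without each library in turn, from -0.59 without control 2 to -0.44 without control 1. It was -0.47 without mutant 2, where acinar transcripts were highest and stromal ones lowest. The part of other cells in the Itgav difference was not tested. One antisense gene, Gm13684, overlaps exons of Itgav, and the libraries carry no strand information. Gm13684 averaged 0.0906 CPM over the 4 libraries.

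Itgb5 (ENSMUSG00000022817, chromosome 16, 33829665 to 33949338, plus strand) encodes a beta partner of the Itgav product for binding vitronectin. It stood at 48.9 and 70.4 CPM in mutants, against 83.8 and 73.1 CPM in controls. Both mutant libraries were below both controls, but mutant 2 only just. The log2 change was -0.39 ± 0.22 (SE, n = 2 each, interval -0.99 to 0.20) and did not pass in edgeR (adjusted p = 0.922). It was -0.68 without mutant 2 and -0.15 without mutant 1. Itgb5 lies on the same chromosome as Robo1 and Robo2, 38.4 and 39.9 Mb away. A stretch of 343 bases is 99.7% identical to Gm38317, which averaged 1.09 CPM.

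The other beta partners of the Itgav product were less abundant. Itgb3 (ENSMUSG00000020689, chromosome 11, 104608000 to 104670476, plus strand), known from platelets and angiogenic vessels, stood at 2.68 and 1.43 CPM in mutants, against 8.42 and 2.16 CPM in controls. Control 1 was high, and the other 3 libraries were alike. The log2 change was -1.36 (interval -3.69 to 0.96), and -0.07 without control 1. That library also had the largest stromal and pericyte sum (2713 CPM, against 49.8 to 1266 CPM in the other libraries), with 11 of its 12 markers counted and Cspg4 at 0, and the part of such cells was not tested.

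Itgb8 (ENSMUSG00000025321, chromosome 12, 119158022 to 119238802, minus strand), whose product with that of Itgav releases active TGF-β from its latent form, stood at 9.52 and 11.8 CPM in mutants and at 11.6 and 13.2 CPM in controls. The groups overlapped narrowly. Its log2 change was -0.22, with an interval of -0.99 to 0.55 (unadjusted p = 0.486 in edgeR's quasi-likelihood test). Its log2 change was -0.07 without mutant 1.

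Itgb4 (ENSMUSG00000020758, chromosome 11, 115974709 to 116008412, plus strand) encodes the subunit that anchors hemidesmosomes, the keratin-linked attachments of epithelia. It had 0 and 187 counts in mutants, against 0 and 64 counts in controls (0 and 4.11 CPM, against 0 and 1.57 CPM). One library of each genotype had none, which allows up to 3 counts, or 0.0600 CPM in mutant 1 and 0.0627 CPM in control 1. The log2 change of 1.39 carried an interval of -6.77 to 9.54, and so the data do not say in which direction Itgb4 differs. Among tested genes, 259 likewise had 0 counts in exactly 1 library of each genotype, and 2111 of 16517 had 0 in at least 1 library. Duct markers summed to 809 and 836 CPM in mutants and 751 and 834 CPM in controls, with 8 of 9 counted in every library, Krt7 the most abundant and Cftr at 0 in all libraries.

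**Figure D4:**
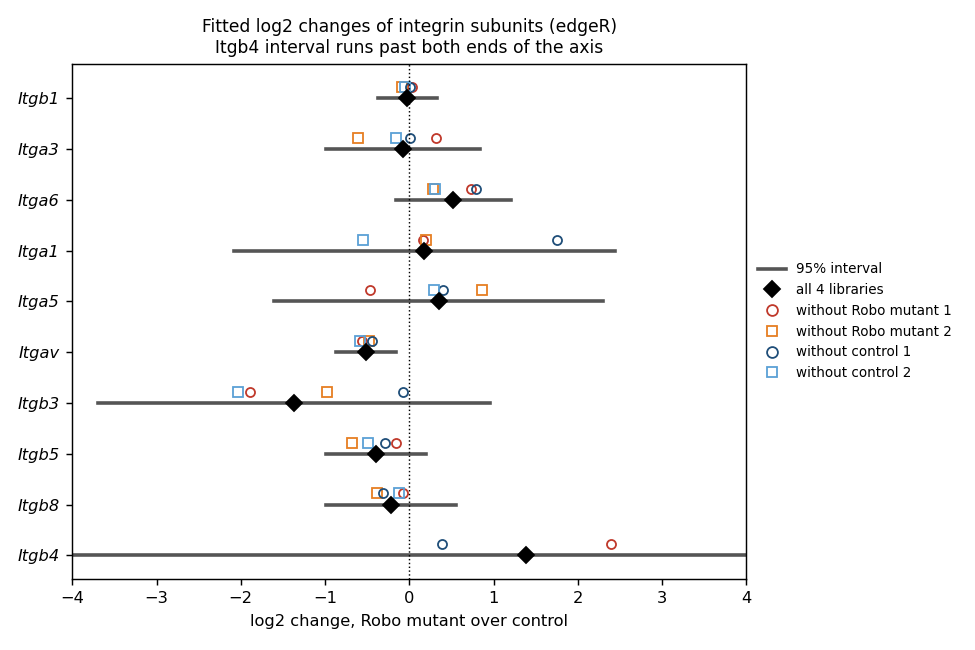
Log2 change of each member, Robo mutant over control, from edgeR with all 4 libraries (diamonds) and its 95% interval (lines), with open symbols for the change when 1 library is left out. The Itgav interval (-0.87 to -0.16) is the only 1 of the 10 that excludes 0, and Itga1, Itga3, Itga5 and Itgb1 have open symbols on both sides of 0.

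By likeness of pattern, Yes1 and Itgb1bp1 were among the 3 genes closest to Itgav of the 125 tested non-member genes of the lists described below. The measure was the Euclidean distance of centred log2(CPM + 1) over the 4 libraries, and it was 0.243 for Yes1 and 0.309 for Itgb1bp1. Of all tested genes 514 were closer to Itgav than Yes1 was, so 4 libraries do not single out these genes.

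Other integrin subunit genes, 17 symbols with 18 identifiers because Itgam is listed for 2, gave 12 tested genes, 9 with a log2 change above 0 and 3 below (median 0.67, against -0.01 over all tested genes). The median was 0.12 with limma, 0.16 with quantile normalization and 0.19 with no filter on low counts (9 above and 7 below). It was 0.35 without mutant 1 (6 above and 5 below) and 0.24 without control 2. It was 1.08 without mutant 2 (8 above and 3 below) and 1.34 without control 1 (11 above and 1 below). Itga4, whose product binds VCAM1 and fibronectin, stood at 19.0 and 18.4 CPM in mutants, against 12.0 and 12.2 CPM in controls. The groups were clearly apart, with a log2 change of 0.63 (unadjusted p = 0.0466 and adjusted p = 0.795 in edgeR). Itga2, for a collagen receptor, stood at 5.60 and 9.90 CPM in mutants and 6.35 and 6.97 CPM in controls, and its log2 change was 0.22.

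Subunits known from leukocytes were present at low levels. Itgam had 170 and 81 counts in mutants and 0 in both controls, at least 38.0-fold higher with a floor of 3 counts per library. It passed the filter only through the mutant libraries, and DESeq2 called it (adjusted p = 0.00163). Itgal stood at 3.34 and 7.85 CPM in mutants, against 0 and 0.393 CPM in controls. Their common partner Itgb2 was at 0 and 3.89 CPM in mutants and 4.22 and 0.859 CPM in controls, so mutant 1 held both alpha transcripts with no count of the beta. Immune markers summed to 81.0 and 139 CPM in mutants and 103 and 40.0 CPM in controls, with 10 of 11 counted in each mutant (Cd68 at 0 in mutant 1, Cd3e at 0 in mutant 2) and all 11 in each control. Cd74, the most abundant of them, stood at 7.26 and 57.8 CPM in mutants and 37.4 and 5.28 CPM in controls. All 11 immune markers had a log2 change above 0, against 48.7% of tested genes. Of them 3 (Ptprc, Tyrobp and C1qb, picked after their values were seen) were above both controls in both mutants, and 0 were below. The shares of tested genes were 16.1% above and 20.4% below. Itgam and Itgal were also above both controls in both mutants. Itgax, another leukocyte subunit, overlapped, at 0 and 3.08 CPM in mutants and 3.93 and 0.883 CPM in controls (log2 change -0.64). Ptprc stood at 7.16 and 8.93 CPM in mutants, against 5.16 and 0.589 CPM in controls. The part of immune cells in the Itgam and Itgal values was not tested.

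Subunits known from mesenchymal cells varied within genotypes instead. Itga8 stood at 26.0 and 1.67 CPM in mutants and 22.8 and 1.69 CPM in controls, and Itga11 at 4.74 and 0.0220 CPM in mutants and 2.07 and 0.834 CPM in controls. Itga11 was lowest in mutant 2, where the stromal and pericyte sum was 49.8 CPM and Col1a1, Pdgfra, Pdgfrb and Rgs5 had 0 counts. Itga8 was about as low in control 2 as in mutant 2, although the stromal and pericyte sum of control 2 was 796 CPM. Col3a1, the most abundant marker of that list, stood at 615 and 8.93 CPM in mutants and 1338 and 426 CPM in controls. These 2 genes were chosen after their values were seen.

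Genes of ligands lay mostly below 0, but not in all sets of libraries. Of 15 tested genes of laminins and basement membrane, 10 had a log2 change below 0 and 5 above (median -0.65), with groups apart in 1, against 36.6% of tested genes. The median was 0.04 without mutant 2, 0.24 without control 1, -1.52 without mutant 1 and -1.04 without control 2. That gene was Lama4, which encodes a laminin chain of vessel walls, at 1.34 and 1.82 CPM in mutants against 9.46 and 6.45 CPM in controls. Its log2 change was -2.33 ± 0.52 (SE), with an adjusted p of 0.680 in edgeR and 0.0321 in DESeq2. Lama5 (-1.15), Nid2 (-0.80) and Lamb3 (2.47) overlapped between genotypes. Lama5, which encodes a laminin chain bound by receptors with the Itga3 and Itga6 subunits, stood at 2.28 and 1.19 CPM in mutants and 5.52 and 2.21 CPM in controls. Endothelial markers stood at 7.32 and 6.93 CPM in mutants against 9.69 and 20.7 CPM in controls, below both controls in both mutants, as did Lama4. Within controls their orders differed, Lama4 being higher in control 1 and the endothelial sum in control 2. The leading endothelial marker, Esam, overlapped between genotypes (2.86 and 5.63 CPM in mutants, 3.18 and 5.40 CPM in controls). Stromal and pericyte markers had 11 of 12 log2 changes below 0 and were lowest in mutant 2 (49.8 CPM), where Col4a2 and Lama2 of this list had 0 counts. The part of either cell type in these values was not tested.

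Among 21 tested ligands with fibronectin, collagen or related integrin-binding proteins, 15 had a log2 change below 0 and 6 above (median -0.43). The median was 0.06 without control 1, -0.16 without mutant 2, -0.54 without control 2 and -2.63 without mutant 1. Groups were apart in 6 of the 21, 1 with the mutant above and 5 below, against 36.6% of tested genes (16.1% above and 20.4% below). Vcam1, a ligand of receptors with the Itga4 subunit, had 0 counts in both mutants, against 203 and 39 in controls, at least 41.3-fold lower. Edil3, which encodes a secreted ligand of Itgav receptors, had 0 in both mutants, against 68 and 130 counts in controls, at least 36.6-fold lower. DESeq2 called both (adjusted p = 0.00387 and 0.00347), and edgeR neither (0.680 each). Genes at 0 in both mutant libraries numbered 304 of those tested, against 21 at 0 in both controls. Mutant libraries had counts for 17751 and 17937 genes, and controls for 19919 and 20918. Genes at 0 in both mutants pass the filter only through the controls, so their difference is partly set by it.

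Cyr61, whose product also binds Itgav receptors, stood at 40.6 and 55.2 CPM in mutants, against 69.8 and 73.2 CPM in controls (log2 change -0.58, unadjusted p = 0.0349 and adjusted p = 0.756 in edgeR). Icam1, a ligand of leukocyte integrins, stood at 1.16 and 0.418 CPM in mutants and 3.28 and 2.36 CPM in controls. This list holds 5 genes that also serve as cell type markers, Col1a1, Col1a2, Col3a1, Spp1 and Vwf. Stromal and pericyte sums overlapped between genotypes (49.8 to 1266 CPM in mutants and 796 to 2713 CPM in controls).

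**Figure D5:**
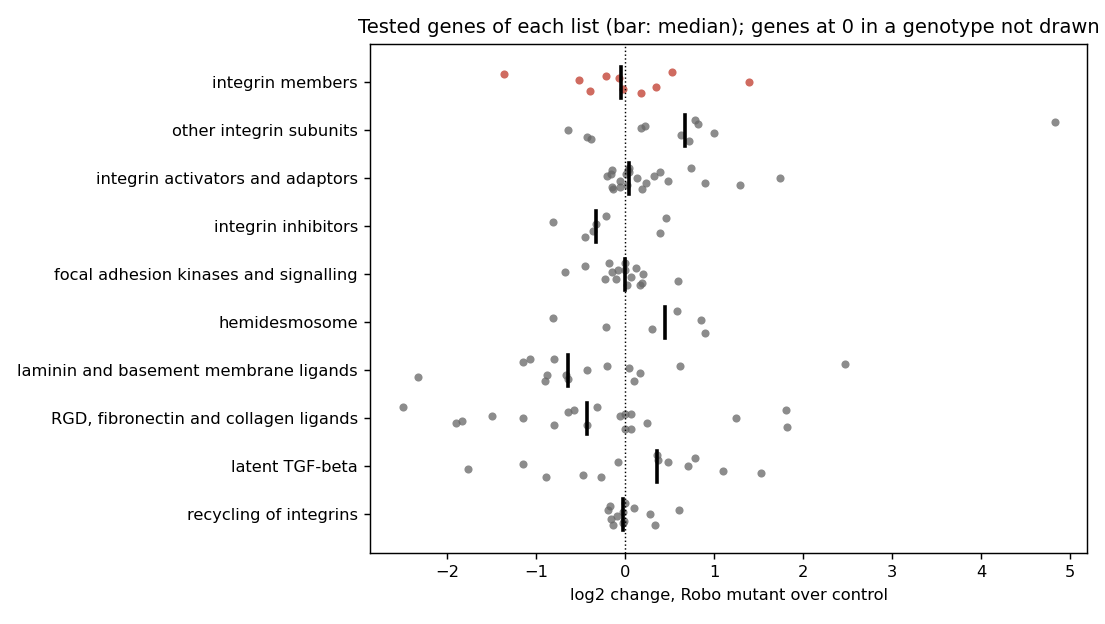
Log2 changes, Robo mutant over control, of the tested genes of each list (points) with the list's median (bars), the integrin members on top in red. Genes with 0 counts in both libraries of a genotype are not drawn. The median of the members is -0.05, and the ligand lists have the lowest medians, -0.65 and -0.43.

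Inside the cell, activators and adaptors of integrins were divided, with 15 of 23 tested genes above 0 and 8 below (median 0.04). With library totals only, 10 were above and 13 below. Groups were apart in 11 of the 23, 7 with the mutant above and 4 below. The shares of tested genes were 36.6% apart, 16.1% above and 20.4% below. Cd81, which encodes a tetraspanin of the membrane, stood at 163 and 216 CPM in mutants, against 115 and 112 CPM in controls. Both mutant libraries were well above both controls, with a log2 change of 0.74 ± 0.18 (SE), an adjusted p of 0.680 in edgeR and of 0.0185 in DESeq2. Vcl, for the actin linker vinculin, stood at 44.7 and 41.3 CPM in mutants, against 32.9 and 32.7 CPM in controls, and its log2 change was 0.39 (adjusted p = 0.818 in edgeR). Lims2, for an adaptor of the integrin-linked kinase complex, had 0 counts in both mutants, against 135 and 48 in controls, at least 31.7-fold lower, and DESeq2 called it (adjusted p = 0.00879). It passed the filter only through the controls, so its difference is partly set by it.

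Of 7 tested genes of inhibitors, 5 were below 0 and 2 above (median -0.33). With a library left out the median ran from -0.34 without control 2 to 0.03 without control 1. Sharpin, whose product holds alpha subunits inactive, stood at 25.5 and 25.2 CPM in mutants, against 18.7 and 18.2 CPM in controls, with a log2 change of 0.46. Itgb1bp1, for a protein that binds the tail of the Itgb1 subunit, stood at 18.8 and 17.1 CPM in mutants, against 21.4 and 20.3 CPM in controls, and Flna had a log2 change of -0.82 with overlapping groups.

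Kinases and signalling proteins of focal adhesions had 7 of 16 genes above 0 and 9 below (median -0.01). With DESeq2, 9 were above and 7 below (median 0.01). Yes1, for a kinase of the Src family, stood at 18.9 CPM in both mutants, against 29.0 and 31.6 CPM in controls, and Crkl, for an adaptor, at 61.7 and 50.9 CPM in mutants, against 35.6 and 39.1 CPM in controls. Their log2 changes were -0.68 and 0.59, with unadjusted p of 0.0167 and 0.0206 and an adjusted p of 0.680 for both in edgeR. Rhoa (-0.23) and Fyn (-0.45) completed the genes of smallest p. In this list groups were apart in 4 of 16 genes, against 36.6% of tested genes.

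In the hemidesmosome list 4 of 6 genes were above 0, all 4 with both mutant libraries above both controls (median 0.45). Groups were apart in 5 of the 6, against 36.6% of tested genes (16.1% with the mutant above and 20.4% below). The gene apart with the mutant below was Dst, at 150 and 185 CPM in mutants, against 189 and 200 CPM in controls (log2 change -0.22). Col17a1 (-0.81) overlapped, with 0 counts in mutant 1 and control 1. Krt8, for a keratin of simple epithelia, stood at 496 and 854 CPM in mutants, against 386 and 360 CPM in controls, and its partner Krt18 at 366 and 548 CPM in mutants, against 329 and 279 CPM in controls. Their log2 changes were 0.86 and 0.59 (unadjusted p = 0.0381 and 0.0677, adjusted p = 0.764 and 0.860 in edgeR). Cd151, for a tetraspanin that binds laminin receptors, had 0.89 and Plec, for the keratin linker plectin, 0.31. The change of Krt8 was 0.41 without mutant 2 and 1.20 without mutant 1, and that of Krt18 was 0.27 and 0.85. That of Cd151 was 1.31 without mutant 2 and 0.31 without mutant 1. Both keratins were highest in mutant 2, as were acinar markers (3551 and 54894 CPM in mutants and 5671 and 861 CPM in controls), whose part was not tested.

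Genes of latent TGF-β were divided, 7 of 13 above 0 and 6 below (median 0.36), with 0 at an unadjusted p under 0.05. With a library left out the median ran from -0.02 without mutant 2 to 0.56 without control 1. Ltbp2 stood at 19.1 and 9.92 CPM in mutants, against 5.43 and 8.20 CPM in controls, and Smad7, a target of the pathway that inhibits it, at 10.5 and 12.4 CPM in mutants, against 8.13 and 5.94 CPM in controls. Ltbp3 (0.36) and Ltbp4 (-1.15) overlapped between genotypes. Genes of integrin recycling varied least, 4 of 13 above 0 and 9 below, with a median of -0.02 and a range of -0.20 to 0.60. The small GTPase genes Arf6 (0.33) and Rab21 (0.27) were above both controls in both mutant libraries, and Vps35 (-0.20) was below, while Dab2 (0.60) overlapped. Of the 125 tested genes of the 9 lists, edgeR called 0 over all genes tested. At an unadjusted p under 0.05 there were 12, against 6.21% of tested genes, and DESeq2 called 6, against 0.914%. Itgam, Lims2, Edil3 and Vcam1 were among both the 12 and the 6. They had 0 counts in both libraries of 1 genotype and passed the filter only through the other. Both counts are therefore partly set by the filter.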

How the data were processed

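RNA of mCherry-sorted β cells was made into full-length cDNA with a low-input kit and tagmented, per the labels' protocols, which gives no strand information. Per the submitters' processing notes edgeR 3.16.5, RSEM 1.3.0, STAR 2.5.3a and bcl2fastq 2.20.0.422 were used on GRCm38, without their roles. The deposited table holds estimated counts, in whole numbers. Its name calls them normalized, but library totals differ, so they were treated as counts; whether they were rescaled earlier is unknown, and then totals are not depths. All columns were used (0 left out).

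Values were rounded, 16517 genes with 10 counts or more in 2 libraries or more were kept, and edgeR 4.0.16 in R 4.3.3 gave TMM factors and two-sided quasi-likelihood tests, adjusted by Benjamini-Hochberg at 0.05. Standard errors and 95% intervals come from the F statistic. CPM uses TMM-scaled totals. Alternatives were other scalings, filters, DESeq2 1.42.0, limma 3.58.1 on log2(CPM + 1), and leaving out each library. Scripts were tested on simulated data with less spread between libraries than here, so that test does not gauge how often real changes are missed. Positions and lengths come from GENCODE M21 (51719 of 51912 identifiers matched), and copies were searched with BLAST 2.17.0 at 95% identity over at least 300 bases. Members, lists and the naming rule were chosen with earlier results of these data known. The rule takes all members, Robo1, Robo2, up to 4 genes of smallest p per list, the most abundant marker and those at 0 counts per cell type list, and 3 genes most like the member of smallest p; 2 genes that it takes are not reported here. Intervals cover the spread between libraries, and floors counting error only.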

Additional observations from a re-analysis of the deposited data

How the results depend on the processing

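No paired analysis was possible because the labels give no replicate numbers and nothing that links a mutant library to a control library. With edgeR 0 genes passed over all genes tested under every scaling and filter tried, 151 with DESeq2, and 0 to 1 without each library in turn. The 0 called members held in all 12 alternatives, and the 0 called genes of the pathway lists in all but DESeq2, which called 6. Without 1 library the genes at an unadjusted p under 0.05 ran from 181 to 3038, the members there from 0 to 3 and the members with a log2 change above 0 from 2 to 6, against 1025, 1 and 4 with all libraries. A control library left out gave 187 and 181 such genes, a mutant library left out 3038 and 2769, and the cause was not tested. Leaving out 1 library turned the sign of Itga1 (-0.55 to 1.75), Itga3 (-0.61 to 0.32), Itga5 (-0.47 to 0.86), Itgb1 (-0.090 to 0.038), Dab2 (-0.51 to 1.22), Flna (-1.93 to 0.25), Itga2 (-0.25 to 0.57) and Nid2 (-1.50 to 0.60). With median transcript length the mean level per kilobase was 184 for Itgb1, 109 for Itgb5, 59.0 for Itgav, 27.2 for Itga6, 12.9 for Itga3, 3.13 for Itgb8, 1.51 for Itga1 and 1.08 for Itga5, by construction of the shorter length. Itgb4 could be fitted only with both mutant 2 and control 2 kept. Depth limits Itgb4 where it has 0 counts (up to 3 allowed).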
